A study of Mus musculus with 8 samples.

Results

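Type I interferon-stimulated genes, 40 in number, were measured in the spleens of F1 hybrid mice that had received cells from DBA or B10.D2 donors. The genes were taken as a fixed list of symbols, and every probe whose symbol in the platform annotation is on that list was used. Of the 40 genes, 37 had at least 1 listed probe, 54 probes in all out of 25697 on the array, and 32 genes with 44 probes were bright enough to test, out of 9028 genes with 12950 probes. Dtx3l, Herc6 and Ifi44 had 0 listed probes, while Ifih1, Ifit1, Oas1a, Parp9 and Xaf1 had a probe that did not pass the brightness filter.

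RNA of whole spleen was hybridised to 8 Illumina BeadChip arrays, on which each probe is a set of beads with the same oligonucleotide and bound RNA is read as brightness. The DBA donor group (4 arrays) and the B10.D2 donor group (4 arrays) were both B6D2F1J recipients 10 weeks old, and spleens were taken at day 14 after engraftment. The series is titled as a parent-into-F1 lupus response, a model in which donor lymphoid cells react to the hybrid host. B6D2F1J is the hybrid of C57BL/6 and DBA/2, so DBA donor cells come from a parental strain, whereas B10.D2 is a C57BL/10 strain that carries the major histocompatibility haplotype of DBA/2. All recipients had donor cells, and a spleen without them was not analysed here. Since the labels do not tie each replicate to its own mouse, the p-values describe variation among these arrays that may be partly technical.

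Type I interferons are cytokines released after viral or self nucleic acids are sensed. They bind a receptor that nearly every cell carries, and its kinases activate transcription factors, among them STAT2, which joins IRF9 and binds the interferon-stimulated response element, a short DNA motif in front of many target genes. The induced proteins degrade, bind or edit foreign RNA, block viral entry or release, and feed back on the pathway itself, and a raised level of these RNAs in blood cells is a well known feature of human lupus.

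The core of the response element is what many of these genes share in their promoters, so stretches in front of 7 of them are shown, with the core in capitals. The core was searched on both strands as GAAA, then 2 bases of any kind (NN), then GAAA, which reads TTTC, NN, TTTC on the other strand, overlapping matches included, in RefSeq windows of 300 bases that run from 250 bases before a gene's start (GRCm38.p6). The stretches are, written 5′ to 3′ along the gene's strand:
Stat2 (chr10:128270264-128270323, plus strand): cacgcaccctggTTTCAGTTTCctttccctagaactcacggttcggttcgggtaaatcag
Isg15 (chr4:156200849-156200908, minus strand): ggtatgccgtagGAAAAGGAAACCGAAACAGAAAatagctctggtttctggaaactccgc
Ifit1 (chr19:34640773-34640832, plus strand): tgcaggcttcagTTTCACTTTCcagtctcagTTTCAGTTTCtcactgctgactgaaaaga
Ifit3 (chr19:34583361-34583420, plus strand): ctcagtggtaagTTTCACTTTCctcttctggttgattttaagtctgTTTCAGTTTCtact
Oas3 (chr5:120777687-120777746, minus strand): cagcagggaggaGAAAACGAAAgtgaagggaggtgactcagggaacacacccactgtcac
Rsad2 (chr12:26456525-26456584, minus strand): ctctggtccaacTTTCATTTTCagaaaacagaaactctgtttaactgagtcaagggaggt
Bst2 (chr8:71537555-71537614, minus strand): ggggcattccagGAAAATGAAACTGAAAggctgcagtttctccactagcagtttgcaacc

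Of the 31 genes of the list with a window in the RefSeq table, 14 held the core (45.2%), against 3.99% of all 27025 genes and 3.44% of all 32851 windows there. Isg15 held 3 overlapping cores in the stretch shown, Bst2 held 2 overlapping ones, and Ifit1 and Ifit3 held 2 separate ones each. A match is a description of the letters and not evidence of binding in these spleens.

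B10.D2 donor replicate 4 stood apart from the other arrays and bears on much of what follows. All 14 exocrine pancreas markers with a probe were detected on it, against 1 or 2 of the 14 on each of the other 7 arrays, and the pancreatic elastase gene Cela1 stood at 8.58 to 8.96 on the DBA donor arrays, at 8.32 to 8.67 on the other B10.D2 donor arrays and at 10.87 on this array, on the normalized log2 scale. The mean of the tested plasma cell markers was 9.19 to 9.54 on the DBA donor arrays, 8.97 to 9.57 on the other B10.D2 donor arrays and lowest, 8.25, on this array. The spleen's own cells were represented on every array, with 8 of 9 B cell markers and 9 of 9 T cell markers detected on each. Their mean levels differed between arrays. T cell markers averaged 8.52 to 9.01 on the DBA donor arrays, 9.05 to 9.12 on the other B10.D2 donor arrays and 8.60 on this array, and B cell markers averaged 9.13 to 9.51 on the DBA donor arrays, 9.50 to 9.61 on the other B10.D2 donor arrays and 9.32 on this array. The part of this array's makeup in the interferon-stimulated genes was not tested. The whole list's counts by test, overlap and sign are given with and without this array, as is each gene of the list whose difference turned in sign. In bulk spleen RNA, fewer cells of a type and less RNA per cell cannot be told apart.

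With quantile-normalized arrays no interferon-stimulated gene of the list passed the limma test between donors, and the mean of the list differed between them by less than the SD over arrays. Values below are normalized log2 intensities with the SD over 4 arrays, and differences are DBA donor minus B10.D2 donor. Of the 32 tested genes limma called 0 at a Benjamini-Hochberg adjusted p under 0.05, where 0.0695% of all tested probes were called, and the smallest adjusted p on the list was 0.219. At an unadjusted p under 0.05 there were 1 gene with a positive and 2 with a negative difference, where 7.09% of all tested probes had a positive and 7.4% a negative difference at that level (14.5% together). The 4 and 4 arrays did not overlap for 1 of the 32 genes, Irf9, against 8.37% of all tested probes. With B10.D2 donor replicate 4 left out, limma called 0 of the 32, 3 had an unadjusted p under 0.05 (against 18.1% of all tested probes) and 4 had groups that did not overlap (against 17.0%).

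The sizes were small. No tested gene of the list differed by 0.5 or more on the log2 scale (0 of 32, against 1.72% of all tested probes), and the median absolute difference was 0.14, against 0.12 over all tested genes. The 95% confidence intervals of all 32 genes lay within 1 of 0 on the log2 scale, with the lowest bound at -0.80 (Bst2) and the highest at 0.71 (Isg20), and those of 19 genes lay within 0.5.

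Most differences were slightly negative. The difference was below 0 for 25 of the 32 genes (78.1%), against 54.0% of all tested genes, and the median was -0.11, against -0.02 over all tested genes. Without B10.D2 donor replicate 4 it was below 0 for 19 of 32 (59.4%, against 54.2% of all tested genes), with a median of -0.04. The 6 genes whose sign turned were Usp18 (0.11 without that array), Oas3 (0.04), Cmpk2 (0.03), Ifitm3 (0.01), Isg15 (0.06) and Ifi35 (0.01). Among those that stayed negative, Irf7 was -0.17, Ifit3 -0.17, Mx2 -0.09, Oas2 -0.06 and Rtp4 -0.02. With the arrays scaled to a common median in place of quantile normalization, which moved the median of all tested probes to -0.161, it was below 0 for 29 of 32. Under that scaling Irf9 stood at -0.42, Irf7 at -0.44, Stat2 at -0.38, Adar at -0.42, Ifit3 at -0.45, Isg15 at -0.33, Usp18 at -0.23, Oasl2 at 0.05 and Isg20 at 0.20, all as log2 differences. The count was also 19 of 32 without DBA donor replicate 1, and 21 of 32 without DBA donor replicate 2. Across the 8 ways to leave out 1 array, 19 genes kept their sign, 13 of them always negative and 6 always positive.

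The mean over the 32 genes was 8.30, 8.31, 8.54 and 8.42 on DBA donor replicates 1 to 4, and 8.42, 8.41, 8.39 and 8.62 on B10.D2 donor replicates 1 to 4. The DBA donor group averaged 8.39 ± 0.11, against 8.46 ± 0.11 for the B10.D2 donor group (SD, n = 4 each), or 8.41 ± 0.01 without its replicate 4 (SD, n = 3). The highest array of the B10.D2 donor group was the one on which the pancreas markers were detected, while the DBA donor arrays surrounded the other 3. On the scale before normalization the mean intensity of the 32 genes was 620.5, 827.7, 679.7 and 780.5 on the DBA donor arrays and 778.8, 1082, 921.6 and 1135 on the B10.D2 donor arrays. The brightness of whole arrays differed the same way, and the median intensity of all probes was 113.2 to 124.8 on DBA donor arrays and 126.4 to 142.1 on B10.D2 donor arrays.

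**Figure D1:**
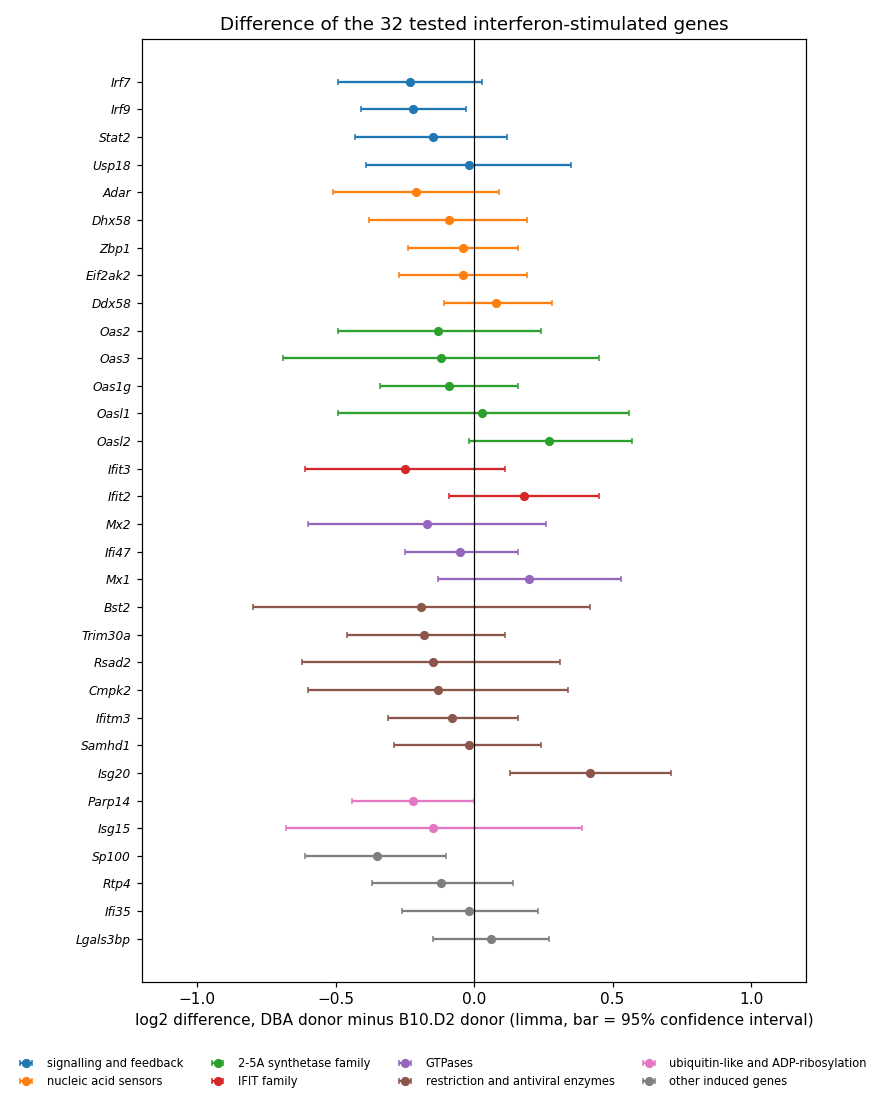
Log2 difference (horizontal axis, DBA donor minus B10.D2 donor) of each of the 32 tested genes, one gene per row and coloured by role, with the limma 95% confidence interval as a bar. The intervals of 3 genes, Irf9, Isg20 and Sp100, exclude 0, and every interval lies within 1 of 0.

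All 4 tested signalling genes had negative differences, with a median of -0.19, and without B10.D2 donor replicate 4 the count was 3 of 4, with a median of -0.14. Irf9, the DNA-binding subunit of the complex that holds STAT2, stood at 9.76, 9.89, 9.77 and 9.83 on the DBA donor arrays and at 9.90, 10.03, 10.09 and 10.12 on the B10.D2 donor arrays. Every DBA donor array was below every B10.D2 donor array, by a narrow margin at the nearest pair. Its difference was -0.22 (SE 0.09, 95% confidence interval -0.41 to -0.03, limma adjusted p = 0.279), and leaving out B10.D2 donor replicate 4 gave -0.19. The other Irf9 probe differed by 0.04 (SE 0.10), and its groups overlapped.

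Irf7, the factor that amplifies interferon production, stood at 7.24, 7.03, 7.53 and 7.41 in DBA donor spleens, against 7.49, 7.45, 7.48 and 7.70 in B10.D2 donor spleens. The groups overlapped through DBA donor replicate 3, and the difference was -0.23 (SE 0.12, limma adjusted p = 0.411), or -0.14 without DBA donor replicate 2. Stat2, a signal transducer that binds IRF9, stood at 8.14, 7.72, 7.91 and 8.26 on the DBA donor arrays and at 8.16, 8.13, 8.06 and 8.30 on the B10.D2 donor arrays, with a difference of -0.15 (SE 0.12, limma adjusted p = 0.614) that was -0.06 without DBA donor replicate 2. The DBA donor values of Stat2 spread over more than the B10.D2 donor values and enclosed most of them.

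Usp18, which removes ISG15 from proteins and silences the receptor, varied more within groups than between them. It stood at 8.95, 9.25, 9.66 and 9.25 in DBA donor spleens, against 9.26, 9.07, 9.18 and 9.69 in B10.D2 donor spleens, a difference of -0.02 (SE 0.17, 95% confidence interval -0.39 to 0.35, limma adjusted p = 0.970) that was 0.11 without B10.D2 donor replicate 4. Its other probes differed by -0.05 and 0.11.

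**Figure D2:**
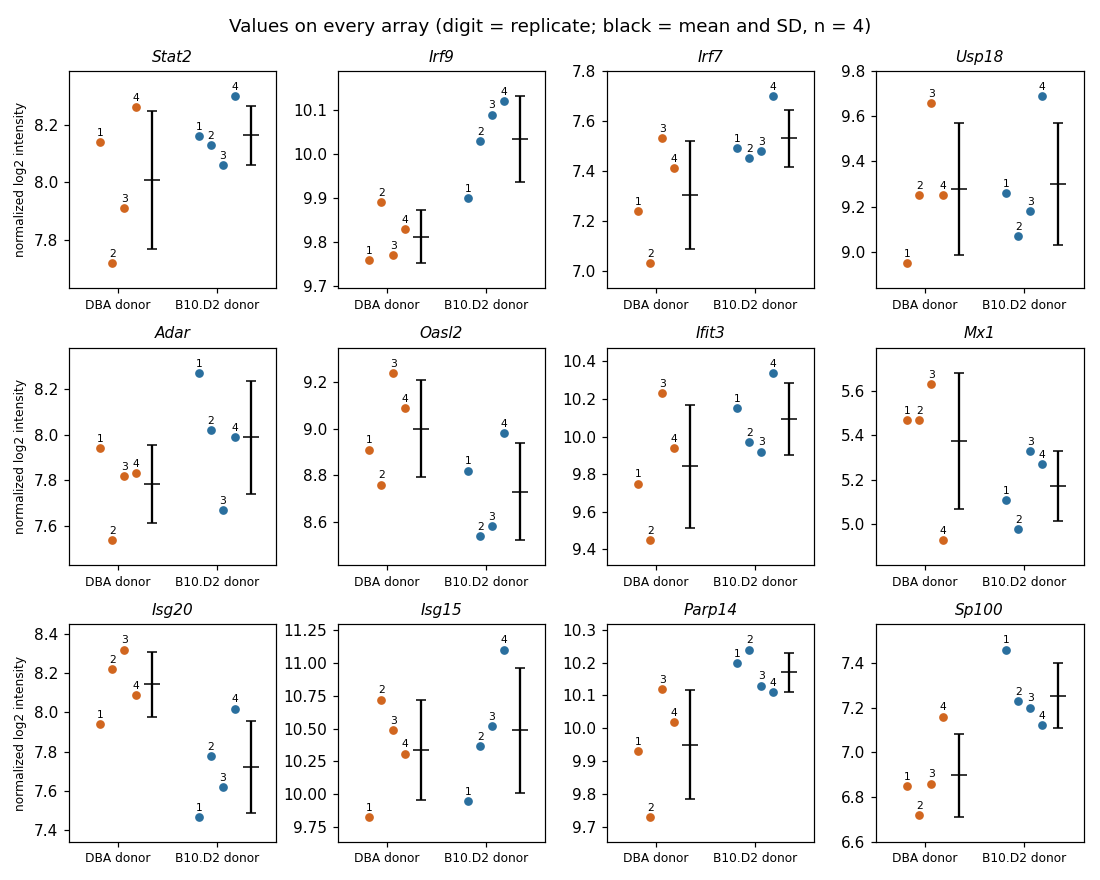
Normalized log2 intensity (vertical axis, its own range in each panel) of 12 genes on every array, DBA donor in orange and B10.D2 donor in blue, with the replicate number above each point and the mean and SD of 4 arrays in black. The groups overlap in every panel but that of Irf9, and B10.D2 donor replicate 4 is the highest of its group for 8 of the 12 genes.

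The sensors of foreign nucleic acid lay close together, with a median of -0.04 over 5 tested genes (1 positive, 4 negative). Without B10.D2 donor replicate 4 the counts were the same, with a median of -0.03. Adar, which edits adenosines in double-stranded RNA, stood at 7.94, 7.54, 7.82 and 7.83 on the DBA donor arrays and at 8.27, 8.02, 7.67 and 7.99 on the B10.D2 donor arrays, with overlap and a difference of -0.21 (SE 0.14, limma adjusted p = 0.521). Its other probes differed by 0.17 and -0.01, so its 3 probes did not share a sign. Ddx58, the RIG-I sensor of viral RNA, differed by 0.08 and was the steadiest gene of the list in DBA donor spleens (7.26 ± 0.05, against 7.18 ± 0.12 in B10.D2 donor spleens, SD, n = 4 each). Dhx58 (-0.09), a relative of RIG-I that modulates it, Zbp1 (-0.04), a sensor of Z-form nucleic acid, and Eif2ak2 (-0.04), the kinase PKR that halts translation, had adjusted p-values in limma of 0.781, 0.875 and 0.905. Ifih1, the MDA5 sensor, was not well above background on any array.

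The oligoadenylate synthetases make the second messenger that activates RNase L, which degrades RNA, and of their OASL relatives in mice Oasl2 has this activity and Oasl1 lacks it. Of 5 tested genes of this family 2 had positive and 3 negative differences, with a median of -0.09. Without B10.D2 donor replicate 4 the count turned to 3 positive and 2 negative, with a median of 0.04. Oasl2 stood at 8.91, 8.76, 9.24 and 9.09 in DBA donor spleens, against 8.82, 8.54, 8.58 and 8.98 in B10.D2 donor spleens. The groups overlapped, since B10.D2 donor replicate 4 was above DBA donor replicates 1 and 2 and B10.D2 donor replicate 1 above DBA donor replicate 2. The difference was 0.27 (SE 0.13, limma adjusted p = 0.389), and leaving out B10.D2 donor replicate 4 gave 0.36.

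The differences of Oas1g (-0.09, SE 0.11), Oas2 (-0.13, SE 0.16) and Oas3 (-0.12, SE 0.26) were smaller than their errors, and the other tested Oas1g probe differed by 0.26. Oasl1 differed by 0.03, and by 0.29 without B10.D2 donor replicate 4, which reached 7.18 against 6.11 to 6.19 on the other B10.D2 donor arrays. Its other tested probe differed by -0.18. Oas1a was not well above background on any array. Genes of the Oas, Ifit and Mx families have close copies, and whether a probe also binds a copy was not tested.

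The IFIT proteins bind viral RNA that lacks the host's cap methylation and block its translation. Ifit3 stood at 9.75, 9.45, 10.23 and 9.94 on the DBA donor arrays and at 10.15, 9.97, 9.92 and 10.34 on the B10.D2 donor arrays, with overlap and a difference of -0.25 (SE 0.16, limma adjusted p = 0.510). DBA donor replicate 2 was the lowest of the 8, and without it the difference was -0.12. The other Ifit3 probes differed by 0.17 and 0.09. Ifit2 differed by 0.18 (SE 0.12) and by -0.01 on its other probe. Ifit1, which has 2 cores in its promoter stretch, had 1 probe that was not well above background on any array, so it gave no measure of the gene in either group.

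Among the GTPases, Mx1, an inhibitor of influenza virus that many inbred mouse strains carry in a non-functional form, stood at 5.47, 5.47, 5.63 and 4.93 in DBA donor spleens, against 5.11, 4.98, 5.33 and 5.27 in B10.D2 donor spleens. DBA donor replicates 1 to 3 were above all B10.D2 donor arrays and replicate 4 below all of them. The difference was 0.20 (SE 0.15, limma adjusted p = 0.585), and 0.35 without DBA donor replicate 4. The Mx1 probe was dim, with a mean intensity before normalization of 128.8 on the DBA donor arrays and 140.4 on the B10.D2 donor arrays. Without background correction its difference was 0.06. Mx2 differed by -0.17 (SE 0.19) and Ifi47, an immunity-related GTPase that interferon-gamma also induces, by -0.05 (SE 0.09).

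Isg20, an exonuclease that degrades RNA, had the largest positive difference among the 32 genes. It stood at 7.94, 8.22, 8.32 and 8.09 in DBA donor spleens, against 7.47, 7.78, 7.62 and 8.02 in B10.D2 donor spleens, so that B10.D2 donor replicate 4 alone reached into the DBA donor range. The difference was 0.42 (SE 0.13, 95% confidence interval 0.13 to 0.71, 1.34-fold, unadjusted p = 0.00898, limma adjusted p = 0.219), and with that array left out it was 0.52 (limma adjusted p = 0.109). With the arrays scaled to a common median it was 0.20 (limma unadjusted p = 0.214, adjusted p = 0.404), so its unadjusted p was no longer under 0.05. Before normalization its mean intensity was 332.9 on the DBA donor arrays, against 348.5 on the B10.D2 donor arrays, so the positive sign appears after the arrays are put on a common scale. Plasma cell markers had positive differences in 6 of 7 tested genes, with a median of 0.41 and array means of 9.19 to 9.54 in DBA donor spleens, against 8.25 to 9.57 in B10.D2 donor spleens. Their median without B10.D2 donor replicate 4 was 0.17, with 6 of 7 positive. Their part in the value of Isg20 was not tested.

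The other antiviral enzymes and restriction factors had negative differences, 6 of 6, none above 0.20 in size. Without B10.D2 donor replicate 4 the count was 4 of 6, with Cmpk2 at 0.03, Ifitm3 at 0.01 and Bst2 at -0.29. Bst2, or tetherin, which holds budding virus at the cell surface and also marks plasmacytoid dendritic cells in mice, stood at 8.88, 9.0, 9.13 and 7.69 in DBA donor spleens, against 8.94, 8.88, 9.07 and 8.57 in B10.D2 donor spleens. DBA donor replicate 4 was the low value, and without it the difference was 0.14 in place of -0.19. The other plasmacytoid dendritic cell markers averaged 8.07 on DBA donor replicate 4 and 7.71 to 7.83 on the other DBA donor arrays. On the B10.D2 donor arrays they averaged 7.96 to 8.20. The part of these cells in the Bst2 values was not tested. Bst2 and the next 2 genes are given in full because of their spread, a choice made after their values were seen.

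Rsad2, or viperin, makes a chain-terminating nucleotide from CTP, and Cmpk2, its direct neighbour on chromosome 12, is a kinase that helps to supply nucleotides. Rsad2 stood at 11.91, 12.72, 12.24 and 12.34 on the DBA donor arrays and at 11.87, 12.62, 12.70 and 12.65 on the B10.D2 donor arrays, with a difference of -0.15 (SE 0.21, limma adjusted p = 0.782) that was -0.09 without B10.D2 donor replicate 4. Cmpk2 stood at 8.27, 9.20, 8.82 and 8.90 on the DBA donor arrays and at 8.59, 8.94, 8.79 and 9.41 on the B10.D2 donor arrays, with a difference of -0.13 (SE 0.21, limma adjusted p = 0.818) that was 0.03 without it. Both genes were lowest on replicate 1 within each group. The groups covered nearly the same range for Rsad2. For Cmpk2 they overlapped, but both ends of the range were lower in the DBA donor group, and the B10.D2 donor upper end was replicate 4. Trim30a (-0.18), a regulator of inflammatory signalling, Ifitm3 (-0.08), which blocks viral fusion, and Samhd1 (-0.02), which depletes nucleotides, had adjusted p-values in limma of 0.576, 0.780 and 0.954.

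Isg15, a ubiquitin-like protein that is attached to other proteins, stood at 9.83, 10.72, 10.49 and 10.31 in DBA donor spleens, against 9.95, 10.37, 10.52 and 11.10 in B10.D2 donor spleens. DBA donor replicate 1 was the lowest array, B10.D2 donor replicate 4 was the highest, and the difference of -0.15 (SE 0.24, 95% confidence interval -0.68 to 0.39, limma adjusted p = 0.824) was 0.06 without the second of these arrays. Parp14, an ADP-ribosyltransferase, stood at 9.93, 9.73, 10.12 and 10.02 on the DBA donor arrays and at 10.20, 10.24, 10.13 and 10.11 on the B10.D2 donor arrays. The groups overlapped slightly, through DBA donor replicate 3, and the difference was -0.22 (SE 0.10, limma adjusted p = 0.351), or -0.41 with arrays scaled to a common median (limma adjusted p = 0.0472). That scaling moved the median of all tested probes to -0.161. Parp9, the partner of Parp14 in ADP-ribosylation, was detected on B10.D2 donor replicate 4 only.

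Sp100, a constituent of nuclear bodies, had the largest negative difference of the 32 genes. It stood at 6.85, 6.72, 6.86 and 7.16 in DBA donor spleens, against 7.46, 7.23, 7.20 and 7.12 in B10.D2 donor spleens. The overlap came from replicate 4 of each group. The difference was -0.35 (SE 0.12, 95% confidence interval -0.61 to -0.10, unadjusted p = 0.0116, limma adjusted p = 0.226), and with B10.D2 donor replicate 4 left out it was -0.40 (limma adjusted p = 0.164). With the arrays scaled to a common median it was -0.55 and passed the test (limma adjusted p = 0.0393). Under that scaling the median of all tested probes was -0.161, and 625 of 12950 were called, against 9 with quantile normalization. Rtp4 (-0.12), a chaperone of receptors, Ifi35 (-0.02), a leucine zipper protein, and Lgals3bp (0.06), a secreted glycoprotein, had adjusted p-values in limma of 0.681, 0.963 and 0.805.

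Of the 9 genes with several tested probes, 8 had probes of opposite sign: Adar, Ifit2, Ifit3, Irf9, Oas1g, Oasl1, Samhd1 and Usp18. Oasl2 was the exception, with probes that shared a sign, at 0.27 and 0.06.

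The arrays on which many of these genes were high cut across the donors, while those with the most low values were DBA donor arrays. On B10.D2 donor replicate 4, 28 of the 32 genes were above their own mean over the 8 arrays, where 47.3% of all tested probes were. That array held the highest value of 11 genes (34.4%, against 14.6% of all tested probes) and the lowest of 0 (against 17.7%). DBA donor replicate 3 held the highest value of 10 genes (31.2%, against 12.5%) and the lowest of 0 (against 12.5%). At the other end, DBA donor replicate 2 held the lowest value of 15 genes (46.9%, against 19.0% of all tested probes), and 7 of 32 genes were above their mean there. DBA donor replicate 1 held the lowest value of 7 genes (21.9%, against 9.89%) and DBA donor replicate 4 of 2 (6.25%, against 7.33%). B10.D2 donor replicates 1 to 3 held the lowest value of 3, 3 and 2 genes (9.38%, 9.38% and 6.25%, against 11.6%, 11.3% and 10.6%). The arrays with the most high values thus came from both donor groups.

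**Figure D3:**
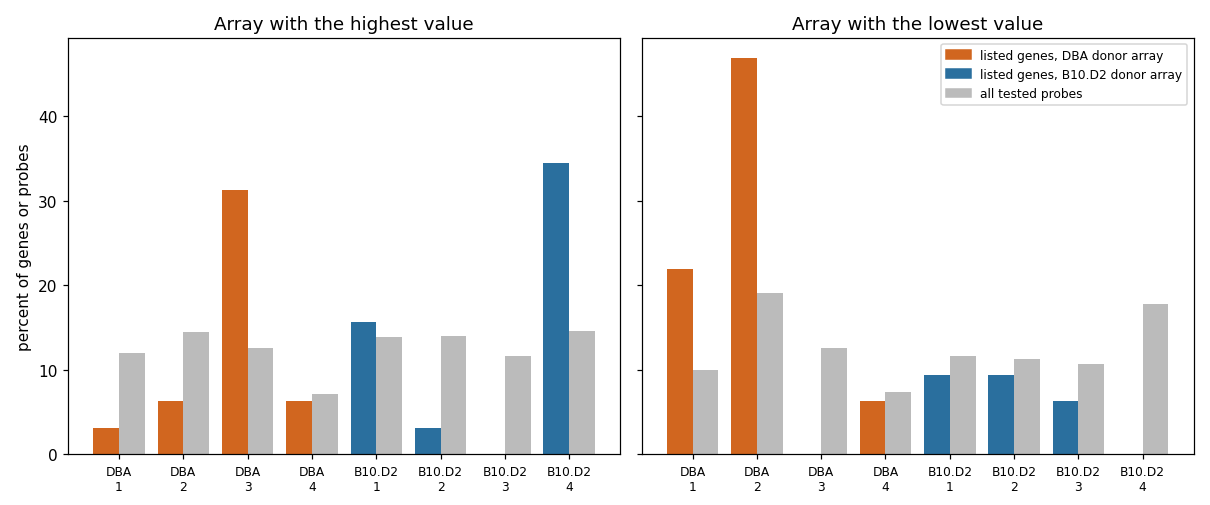
Percent (vertical axis) of the 32 genes, in colour, and of all 12950 tested probes, in grey, that had their highest (left panel) or lowest (right panel) value on each of the 8 arrays. DBA donor replicate 3 (31.2%) and B10.D2 donor replicate 4 (34.4%) hold the most high values, and DBA donor replicate 2 (46.9%) the most low ones.

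The genes did not all follow the same arrays. Within the DBA donor group, replicate 2 was the lowest array for 19 genes (59.4%, against 33.4% of all tested probes), among them Stat2, Irf7, Dhx58, Ifit3, Mx2 and Trim30a, but it was the highest for Irf9, Oas3, Rsad2, Cmpk2 and Isg15. The last 5 genes, together with Isg20 and Ifitm3, were the 7 that were lowest on replicate 1 in both groups (21.9%, against 8.24% of all tested probes). Erythroid markers averaged 11.71 on DBA donor replicate 2 and 11.78 on B10.D2 donor replicate 4, and their lowest means were on both replicates 1, at 10.88 in the DBA donor group and 10.89 in the B10.D2 donor group. Monocyte and neutrophil markers averaged 8.97 on DBA donor replicate 2, against 9.26 to 9.70 on the other DBA donor arrays. T cell (8.52), B cell (9.13), spleen macrophage (10.21) and plasmacytoid dendritic cell markers (7.71) also had their lowest mean of the 8 arrays there. Plasma cell markers (9.30) did not. The part of these cell types in the pattern was not tested.

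**Figure D4:**
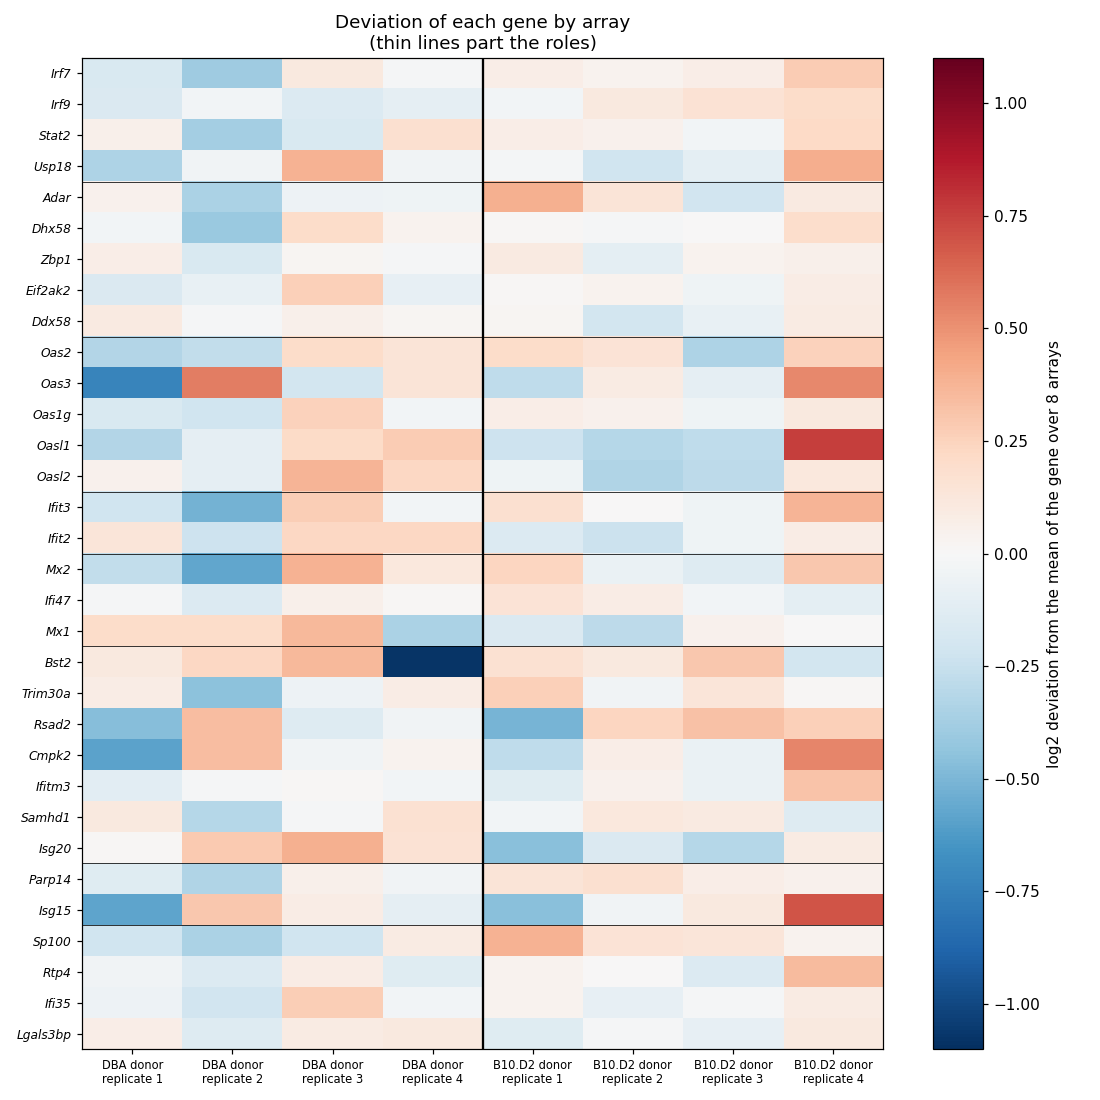
Deviation of each of the 32 tested genes (rows, by role) on each array (columns, DBA donor left and B10.D2 donor right of the thick line) from that gene's mean over 8 arrays, on the log2 scale, red above and blue below. B10.D2 donor replicate 4 is red for 28 genes, DBA donor replicate 2 is red for 7 genes, among them Oas3, Rsad2, Cmpk2 and Isg15, and blue for the rest, and Bst2 is blue on DBA donor replicate 4.

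The median SD over the 4 DBA donor arrays was 0.22 for the 32 genes and 0.15 for all tested probes, and in B10.D2 donor spleens it was 0.15 for the genes and 0.16 for all tested probes. Within the DBA donor group it ran from 0.05 (Ddx58) to 0.67 (Bst2), and within the B10.D2 donor group from 0.06 (Eif2ak2) to 0.52 (Oasl1). Without B10.D2 donor replicate 4 the median SD of the genes in the B10.D2 donor group was 0.10, against 0.13 for all tested probes.

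Values were also set out by whether the promoter window held the response element core. The median difference was -0.147 over 11 tested genes of the list with the core (10 of 11 negative) and -0.022 over 13 without it (8 of 13 negative). Over the other tested genes it was -0.025 for 288 with the core (54.9% negative) and -0.014 for 7046 without it (53.4% negative). These values include B10.D2 donor replicate 4. With that array left out, Oas3 (0.04), Ifitm3 (0.01) and Isg15 (0.06) turned positive among the list's genes with the core. Cmpk2 (0.03) and Ifi35 (0.01) did so among those without the core. Usp18 (0.11) turned as well but had no window. The 4 genes of the list with a core and the 4 without one that peaked on B10.D2 donor replicate 4 made up 36.4% and 30.8% of those sets, while the other tested genes peaked there in 12.5% of cases with the core and 15.8% without it. Irf9, Isg20 and Sp100, the genes at an unadjusted p under 0.05, had 0 matches in their windows.

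Upstream of these genes, the ligands were mostly below detection. Of 16 type I interferon genes with a probe, 2 passed the filter, Ifna1 (difference -0.21, SE 0.12) and Ifna6 (0.03, SE 0.13), both members of a family of near-identical genes, and Ifnb1 was detected on 0 of 8 arrays. In the receptor and kinase list 3 genes were tested. Limma called 0 (against 0.0695% of all tested probes), and 0 had an unadjusted p under 0.05 (against 14.5%). The kinase Tyk2 differed by -0.16 (SE 0.10), and Jak1, the other kinase of the receptor, by -0.02 (SE 0.16), or -0.18 without B10.D2 donor replicate 4. Ifnar2, a receptor chain, stood at 8.07 ± 0.14 in DBA donor spleens, against 8.06 ± 0.02 in B10.D2 donor spleens (SD, n = 4 each).

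The genes that lead to interferon production had negative differences in 9 of 12 tested genes, against 54.0% of all tested genes, with a median of -0.10. Of all tested probes, 7.09% had a positive and 7.4% a negative difference at an unadjusted p under 0.05. Limma called 0 of the 12, and 3, all negative, had an unadjusted p under 0.05. They were Irf5, a transcription factor linked to lupus in people (8.89 ± 0.17 in DBA donor spleens, against 9.24 ± 0.16 in B10.D2 donor spleens, difference -0.35, limma adjusted p = 0.226), the RNA sensor Tlr7 (8.86 ± 0.16 in DBA donor spleens, against 9.12 ± 0.16 in B10.D2 donor spleens, difference -0.27, limma adjusted p = 0.318) and Unc93b1, which carries such receptors to endosomes (difference -0.23, limma adjusted p = 0.337). Leaving out B10.D2 donor replicate 4, these differences were -0.40, -0.29 and -0.30. Among inhibitors of the pathway 8 of 9 had negative differences (6 of 9 without B10.D2 donor replicate 4), 0 were called and 2 had an unadjusted p under 0.05, the feedback inhibitor Socs1 (-0.31, limma adjusted p = 0.244) and the phosphatase gene Ptpn6 (-0.22, limma adjusted p = 0.328).

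A further 34 interferon-induced genes outside the list were tested. Limma called 0 of them, and 26 of the 34 were negative, against 54.0% of all tested genes, with a median of -0.09. At an unadjusted p under 0.05, 1 had a positive and 5 a negative difference, against 7.09% and 7.4% of all tested probes. Without B10.D2 donor replicate 4, 27 of the 34 were negative (79.4%, against 54.2% of all tested genes), with a median of -0.07. Limma then called 0 of the 34, and 8 had an unadjusted p under 0.05 (against 18.1% of all tested probes). Siglec1, a sialic acid receptor of macrophages, stood at 8.50 ± 0.16 in DBA donor spleens, against 9.02 ± 0.16 in B10.D2 donor spleens (SD, n = 4 each). Its difference was -0.52 (limma adjusted p = 0.126), and leaving out B10.D2 donor replicate 4 gave -0.55. Siglec1 is also counted among the spleen macrophage markers below. Helz2, a helicase, differed by -0.32 (limma adjusted p = 0.206). In the list induced by interferon-gamma 9 of 16 were positive with a median of 0.03 and 0 called. At an unadjusted p under 0.05, 2 had a positive and 1 a negative difference. Gbp7, a guanylate-binding protein, differed by 0.64 (limma adjusted p = 0.137). Socs1, named above and also on this list, differed by -0.31 (limma adjusted p = 0.244). Ido1 had the largest difference of this list, 1.07 (limma adjusted p = 0.28), or 0.60 without B10.D2 donor replicate 4.

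Plasmacytoid dendritic cells are potent producers of type I interferon, and macrophages respond to it. Of 9 tested plasmacytoid dendritic cell markers, 7 had negative differences, with a median of -0.12 and array means of 7.71 to 8.07 in DBA donor spleens, against 7.96 to 8.20 in B10.D2 donor spleens. Without B10.D2 donor replicate 4 all 9 were negative, with a median of -0.22. Of all tested genes, 54.0% were negative with that array and 54.2% without it. Klk1, a kallikrein gene on this marker list, stood at 5.88 to 6.46 on the DBA donor arrays, at 6.15 to 6.82 on the other B10.D2 donor arrays and at 8.23 on B10.D2 donor replicate 4, where the pancreas markers were detected, and its difference of -0.80 was -0.37 without that array. Siglech, a defining marker of these cells, differed by -0.62 (SE 0.17, limma adjusted p = 0.191). Of 13 tested spleen macrophage markers 9 were negative, with a median of -0.06 and array means of 10.21 to 10.36 in DBA donor spleens, against 10.29 to 10.55 in B10.D2 donor spleens, and without B10.D2 donor replicate 4 the count was 11 of 13, with a median of -0.07. Limma called 0 of either list. At an unadjusted p under 0.05 there were 1 and 3 genes, all negative, where 7.4% of all tested probes had a negative difference at that level. Among other cell types, T cell markers were negative in 8 of 9 tested genes (median -0.17) and B cell markers in 7 of 8 (-0.19). Monocyte and neutrophil markers were negative in 7 of 11 (-0.06). Without B10.D2 donor replicate 4 these counts were 9 of 9 (-0.32), 7 of 8 (-0.26) and 10 of 11 (-0.09). Erythroid markers were negative in 6 of 9 (-0.08), or 3 of 9 (0.07) without that array. Plasma cell markers were negative in 1 of 7 with and without it. The part of all these cell types in the values of the interferon-stimulated genes was not tested.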

How the data were processed

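The deposited table gives, per the file headers, a mean bead intensity (linear scale, not normalized) and a detection p-value against the array's own negative controls for every probe. GenomeStudio is the tool in the submitters' processing notes, without a version. The authors' other deposited table holds further processed intensity values, by steps not given in the sources used here, and was an alternative. Background was corrected by normexp from the detection p-values (offset 16), followed by quantile normalization and log2 (neqc, limma 3.58.1, R 4.3.3). The 12950 probes detected (p under 0.05) on 4 or more of the 8 arrays were fitted together with lmFit and eBayes (two-sided) and adjusted by Benjamini-Hochberg. The fit was tested on simulated data.

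Where a gene had several tested probes, the brightest on average stands for it. All 54 probes of the list matched the GRCm38.p6 gene table by Entrez number, and 0 symbols changed. Values on every array are given for genes with an unadjusted p under 0.05, for the smallest p in each role, and for Stat2, Irf7, Isg15, Mx1 and Usp18; Ifit1, also chosen, was not above background on any array. From each pathway list the 2 genes with the smallest p were named, and other names were chosen after their values were seen. The genes and lists were chosen with earlier results of these data known. The number of arrays limits the precision. Samples sharing a replicate number were not paired (correlations of their deviations of 0.34, -0.353, 0.0469 and 0.0406 for replicates 1 to 4). Alternatives covered background correction, offset, normalization, source of values, filter, probe summary, array weights, variance model, replicate block, threshold and leaving out single arrays. Plots were made with matplotlib 3.10.9.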

Additional observations from a re-analysis of the deposited data

Results flagged for a closer look

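Among 66 sets of 4 arrays (the 32 genes and their mean, in each donor group), 6 held an array that was distant from its fellows; about 3.3 are expected by chance alone. Distance is the gap to the closest array divided by the range of the 4. B10.D2 donor replicate 4 was the highest of its group for the mean of the 32 genes (8.62, against 8.39 to 8.42, share 0.906), for Oasl1 (7.18, against 6.11 to 6.19, share 0.925), for Dhx58 (8.56, against 8.36 to 8.39, share 0.881) and for Irf7 (7.70, against 7.45 to 7.49, share 0.853). B10.D2 donor replicate 1 was the lowest of its group for Rsad2 (11.87, against 12.62 to 12.70, share 0.905), and DBA donor replicate 2 for Lgals3bp (10.57, against 10.78 to 10.82, share 0.867).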

How the results depend on the processing

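Limma called 0 genes of the list under every alternative tried except scaling arrays to a common median in place of quantile normalization. Under that scaling it called 2, Sp100 (-0.55, limma adjusted p = 0.0393) and Parp14 (-0.41, limma adjusted p = 0.0472), 13 genes had an unadjusted p under 0.05 (against 29.4% of all tested probes), 8 had groups that did not overlap (against 19.0%), and the median difference was -0.25, while 625 of all 12950 tested probes were called, against 9 with quantile normalization. The same scaling moved the median of all tested probes to -0.161, and relative to it the list's median was -0.09. With array weights 5 genes had an unadjusted p under 0.05 (against 20.0% of all tested probes), and with probes averaged per gene 0 genes had groups that did not overlap (against 8.31% of all genes). With 1 array left out, the count at an unadjusted p under 0.05 ran from 2 to 5 (against 9.5% to 18.1% of all tested probes), that of groups that did not overlap from 1 to 4 (against 9.95% to 17.0%), and the median difference from -0.14 to -0.04. With probes averaged per gene the differences of Ifit3 and Usp18 were 0.00 and 0.01, and Usp18 was 0.10 with array weights. With 1 array left out Isg15 ran from -0.32 to 0.06 and Usp18 from -0.15 to 0.11. Of these changes, the fewer arrays are part of the alternative itself, and the cause of the others was not tested. With the replicate number as a block, limma called 0 genes of the list, where 7 of all 12950 tested probes were called. At an unadjusted p under 0.05 there were 3 genes of the list, against 13.0% of all tested probes, and the list's median was -0.11. Of 4 DBA donor arrays, 1 correlated best with its own number. For a dim probe, brightness near background limits what can be measured: 5 of the 37 genes with a probe could not be tested.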
